A study of Oryzias latipes with 50 samples.

Results

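September and October are represented in 2 consecutive years in a monthly series of medaka (Oryzias latipes) brain tissue, and the libraries of 2015 are compared here with those of 2016. The members were chosen by their month labels alone: 4 libraries from 2 dates in 2015 against 4 libraries from 2 dates in 2016, 8 of the 50 libraries in the series. A further 2 libraries, labelled September 2017, served as a reference for direction. The tissue was a block of brain holding the ventral telencephalon and the hypothalamus together with the pituitary, from medaka living outdoors in Okazaki, Japan, sampled near 8 pm. All groups share this housing, this hour and this tissue, and their labels differ by date only. Sampling days were 29 September and 21 October in 2015, 28 September and 26 October in 2016, and 19 September in 2017, as read from the sample titles. Neither the strain, the age or sex of the fish nor the number of fish per library is stated, so the spread between libraries may be that of single fish or of pools. The titles number the September 2015 libraries 49 and 50, after all others, and give both the replicate number 1, and the collection period stated for the study begins in October 2015, after that date. Each year is 1 year, so the year and anything else that differed between these dates cannot be told apart.

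The pituitary makes the hormones that drive gonads, thyroid, growth, pigment and stress responses, and hypothalamic peptides set their release. Brain regions are recognised by genes that stay on in the regions where they were first needed: dlx genes and tbr1 mark parts of the telencephalon, gng8 and gpr151 the habenula, and gnrh2 neurons sit in the midbrain tegmentum of vertebrates. Such markers are used as signs of the regions and cell types that contributed RNA to a block of tissue. In bulk tissue, fewer cells of a type and less RNA per cell cannot be told apart.

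Values are the deposited FPKM, read abundance scaled by transcript length and by library, for 23455 genes. Their sum ran from 293830 to 339238 in the 10 libraries, the read depth was not used here, and values of 0 are given as listed. The tests used log2(FPKM + 1), so differences of genes at low values are understated. Libraries of the same date correlated across genes at 0.981 to 0.983, and libraries of different years at 0.950 to 0.965. A year difference was called where limma's adjusted p was under 0.05 among 16493 genes averaging 1 FPKM or more, with the date as the unit. The spread behind each SE and p was how far the year difference varied between months over all 25 dates. With 2 dates compared per year, it came mostly from months other than September and October. By this test 115 genes were higher in 2016 (0.697%) and 365 lower (2.21%), 480 in all (2.91%). These shares over all genes are the background for every count of a marker list below. The change was at least 2-fold on the log2(FPKM + 1) scale in 11 of the higher and 108 of the lower genes. The median difference over all genes tested was -0.09. Scaling that brings the whole distribution into line, by quantiles, moved this median to -0.01 and the split to 229 higher and 245 lower. Leaving out replicate 2 of September 2016 or replicate 2 of September 2015 raised the count of calls to 765 and 799. Leaving out replicate 1 of these dates lowered it to 347 and 334, with 67 and 74 genes higher. With libraries in place of dates as units, 6326 genes were called (38.4%), 1972 higher (12%) and 4354 lower (26.4%), and that count rests on the spread between libraries of a date only. In 1371 genes (8.31%) all 4 libraries of 2016 lay above all 4 of 2015, and in 3046 genes (18.5%) below, so non-overlap by itself was common.

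Several genes of the midbrain list fell to near 0 in 2016. gnrh2, the gonadotropin-releasing hormone of midbrain neurons, stood at 24.6 and 23.4 FPKM in September 2015 and at 13.7 and 15.4 FPKM in October 2015. All 4 libraries of 2016 and both of September 2017 list it at 0. The fitted difference was -4.30 ± 0.21 (SE) on the log2 scale, with an adjusted p of 1.22e-07. The relaxin-3 genes, whose peptide is made by neurons of the brainstem in mammals, followed the same order. rln3 measured 71.5, 79.1, 36.5 and 5.54 FPKM in the 4 libraries of 2015, and 1.11, 1.00, 1.08 and 0.40 FPKM in 2016. Its fitted difference was -4.21 ± 0.45 (adjusted p = 0.000247), and the last library of October 2015 stood well under the other libraries of its year without reaching those of 2016. rln3a measured between 9.69 and 20.4 FPKM in 2015 and at most 0.39 FPKM in 2016, a difference of -3.71 ± 0.28 (adjusted p = 1.03e-05).

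In the list of habenula, thalamus and pineal, gpr151 and gng8 fell to near 0. gpr151, an orphan receptor of habenular axons, measured 8.73, 9.07, 7.97 and 5.98 FPKM in 2015 and 0, 0.12, 0.04 and 0.08 FPKM in 2016 (difference -3.06 ± 0.21, adjusted p = 4.67e-06). gng8, a G protein subunit of habenular neurons, went from 5.48 to 7.30 FPKM down to 0 to 0.49 FPKM (difference -2.66 ± 0.22, adjusted p = 2.29e-05). LOC101163117, a vesicular acetylcholine transporter gene, fell by 1.03 on the log2 scale (adjusted p = 0.0149) from 1.87 to 0.41 FPKM in the means. tph2, the tryptophan hydroxylase of serotonin neurons, fell by 1.48 (adjusted p = 0.0196) and measured 3.93 to 6.37 FPKM in 2015 against 0.58 to 2.03 FPKM in 2016. wnt7a was the other member to fall, by 0.64 (adjusted p = 0.0291), and did not pass without replicate 1 of September 2016 (adjusted p = 0.0612) or replicate 1 of October 2016 (0.0573), nor with dates grouped in periods of 2 months (0.0707). In all, 5 of the 22 tested genes in the list of habenula, thalamus and pineal fell, none rose and 17 did not pass, and their median difference was -0.24. The median of the list was -0.43 between the Septembers and -0.07 between the Octobers, where that of all genes was -0.10 and -0.08. The years did not overlap in any of these 5 genes, as in 351 of the 365 genes called lower, so this adds little to the calls.

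**Figure D1:**
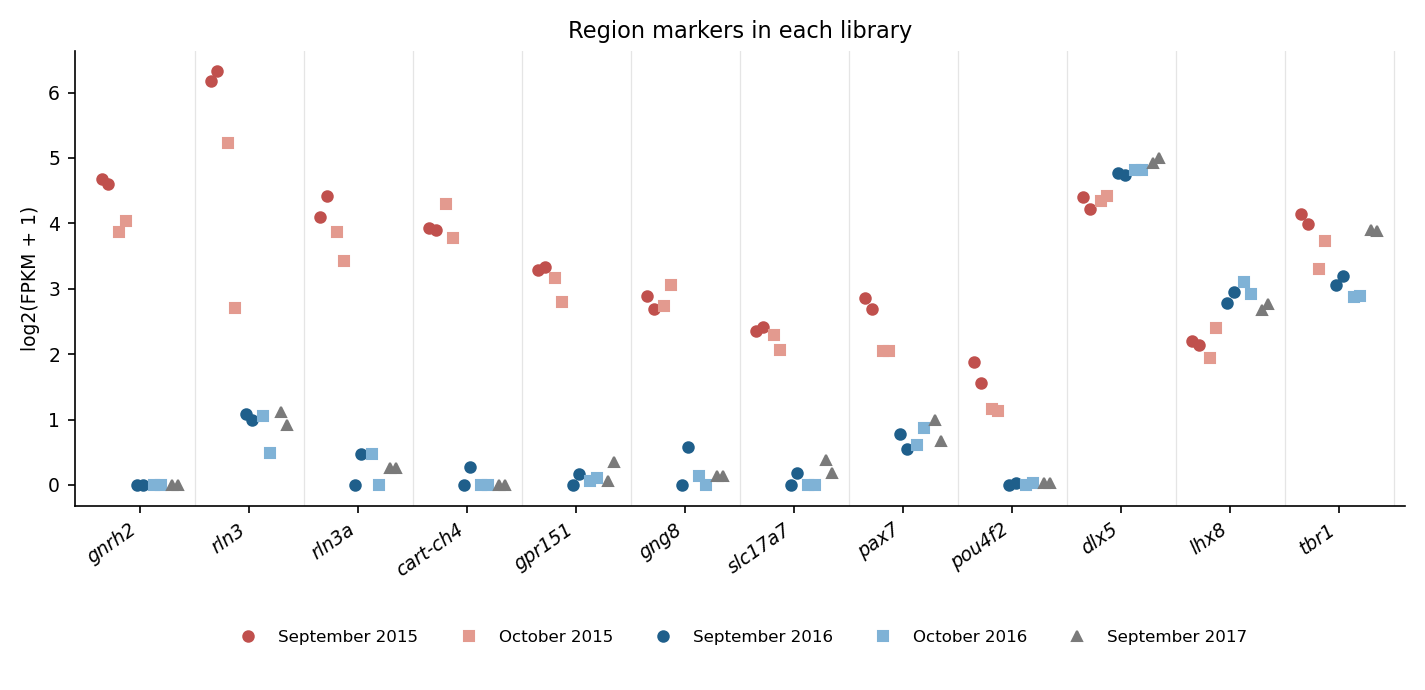
Each symbol is 1 library, on the log2(FPKM + 1) scale, for 9 region or neuron-class genes that fell in 2016 (gnrh2 to pou4f2), followed by 3 telencephalic genes. Colours and shapes give the date. The first 9 genes lie near or under 1 on this scale in every library of 2016 and 2017, while dlx5 and lhx8 lie higher in 2016 and tbr1 lower.

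The list of midbrain, cerebellum and hindbrain genes held 53 tested members, of which 11 fell, none rose and 42 did not pass, with a median of -0.33 beside -0.09 over all genes. Under quantile scaling 11 fell and 1 rose. Between the Septembers the median of the list was -0.49 and between the Octobers -0.07, the latter no lower than that of all genes at -0.08. Besides gnrh2, the relaxin-3 genes and tph2, they include transcription factors of the dorsal midbrain and thalamus, a synaptic organiser and a transporter. pax7, a factor of the optic tectum, measured 6.28, 5.42, 3.13 and 3.14 FPKM in 2015 and 0.46 to 0.82 FPKM in 2016 (difference -1.71 ± 0.27, adjusted p = 0.00641). LOC101174459, a tal1 gene of midbrain GABA neurons, measured 14.9 to 19.1 FPKM in 2015 and 4.25 to 6.74 FPKM in 2016 (adjusted p = 0.0021). LOC101166725 (zic1) fell by 0.98 (adjusted p = 0.0146). Other members that fell included foxb1, whose years overlapped, cbln2, a cerebellin that organises synapses, and slc6a2, the noradrenaline transporter, with differences of -1.06, -0.66 and -0.89.

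The following genes of the list of midbrain, cerebellum and hindbrain were under the limit for testing or did not pass. The hindbrain HOX genes in the list reached at most 0.59 FPKM in any library of the series (hoxb3). en2, a gene of the midbrain-hindbrain boundary, measured 0.03 to 0.22 FPKM in 2015 and 0.06 to 0.34 FPKM in 2016. cbln1 measured 29.5 and 35.7 FPKM in the means of 2015 and 2016 (adjusted p = 0.251). The gene zic1, with its own symbol in the table, measured 39.0 to 48.4 FPKM in 2015 and 29.2 to 35.1 FPKM in 2016 without passing (adjusted p = 0.0599), although the years did not overlap. otx2, a forebrain and midbrain factor, measured 1.27 to 3.01 FPKM in 2015 and 0.44 to 0.96 FPKM in 2016 (adjusted p = 0.104).

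Several further genes went from a few FPKM to near 0. The vesicular glutamate transporter gene LOC101175655 (slc17a7), a label of excitatory neurons, measured 4.09, 4.34, 3.90 and 3.18 FPKM in 2015 against 0, 0.13, 0 and 0 FPKM in 2016. Its difference was -2.24 ± 0.17, with an adjusted p of 1.03e-05. pou4f2, a POU factor of retinal ganglion and tectal neurons, measured 1.19 to 2.67 FPKM in 2015 and at most 0.02 FPKM in 2016 (difference -1.42 ± 0.25, adjusted p = 0.0108).

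Of the genes for CART, an appetite-related peptide, 4 that fell are given here, without a count of the family. LOC100533498 (cart-ch4) measured 14.3, 13.9, 18.7 and 12.7 FPKM in 2015 and was listed at 0 in 3 libraries of 2016 and at 0.21 FPKM in the other (difference -3.91 ± 0.30, adjusted p = 1.03e-05). LOC100533500 (cart-ch11) went from 27.8 to 44.0 FPKM down to 0.25 to 0.51 FPKM, a difference of -4.75 ± 0.47 (adjusted p = 0.000129). LOC100533501 (cart-ch22) measured 2.46 to 14.8 FPKM in 2015 and 0 in every library of 2016 (adjusted p = 0.000116). LOC100533499 (cart-ch6) fell less, from 15.3 to 20.0 FPKM down to 3.03 to 9.45 FPKM (difference -1.42 ± 0.28, adjusted p = 0.0196). cart-ch11, cart-ch22, pth2 and valop were picked after their values were seen. pth2, a peptide of the parathyroid hormone family, measured 2.08 to 3.49 FPKM in 2015 and 0.19 to 0.59 FPKM in 2016 (adjusted p = 0.00565). valop, the vertebrate ancient long opsin of deep-brain photoreceptors, measured 2.50 to 4.33 FPKM in 2015 and 1.14 to 1.66 FPKM in 2016 (adjusted p = 0.0387). Its call was lost without replicate 2 of October 2015 (adjusted p = 0.0903), replicate 1 of September 2016 (0.0585) or replicate 1 of September 2015 (0.0652).

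Many of these genes were already lower in July 2016 than on any earlier date. In 75 of the 365 lower genes, all 10 date means from September 2015 to June 2016 lay above all 15 from July 2016 to September 2017, a course shared by 102 of all 16493 genes tested (0.618%). This course itself places both dates of 2015 above both of 2016. Its share among genes called lower is therefore partly set by the call, and describes when they fell only. gnrh2 ran from 17.6 to 27.3 FPKM on the dates from November 2015 to June 2016, then stood at 0.41 FPKM in July 2016 and at most 0.16 FPKM on later dates. gpr151 ran from 3.62 to 8.30 FPKM on the dates from November 2015 to June 2016, stood at 0.74 and 2.11 FPKM in July and August 2016, and reached at most 0.69 FPKM from November 2016 to August 2017. Of the 11 genes that fell in the midbrain list 9 had this course, and of the 5 in the habenula list 3, without tph2 and wnt7a. Other lists held it too, in 2 of the 5 fallen hypothalamic genes and 2 of the 3 neuronal genes. It was the course of 1 of the 3 fallen retina genes and 1 of the 10 oligodendrocyte genes. The opposite course, bound to a higher call in the same way, was found in 6 of the 115 higher genes, among them dlx6, nr5a1, camkv and prkcb, and in 12 of all genes tested (0.0728%).

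**Figure D2:**
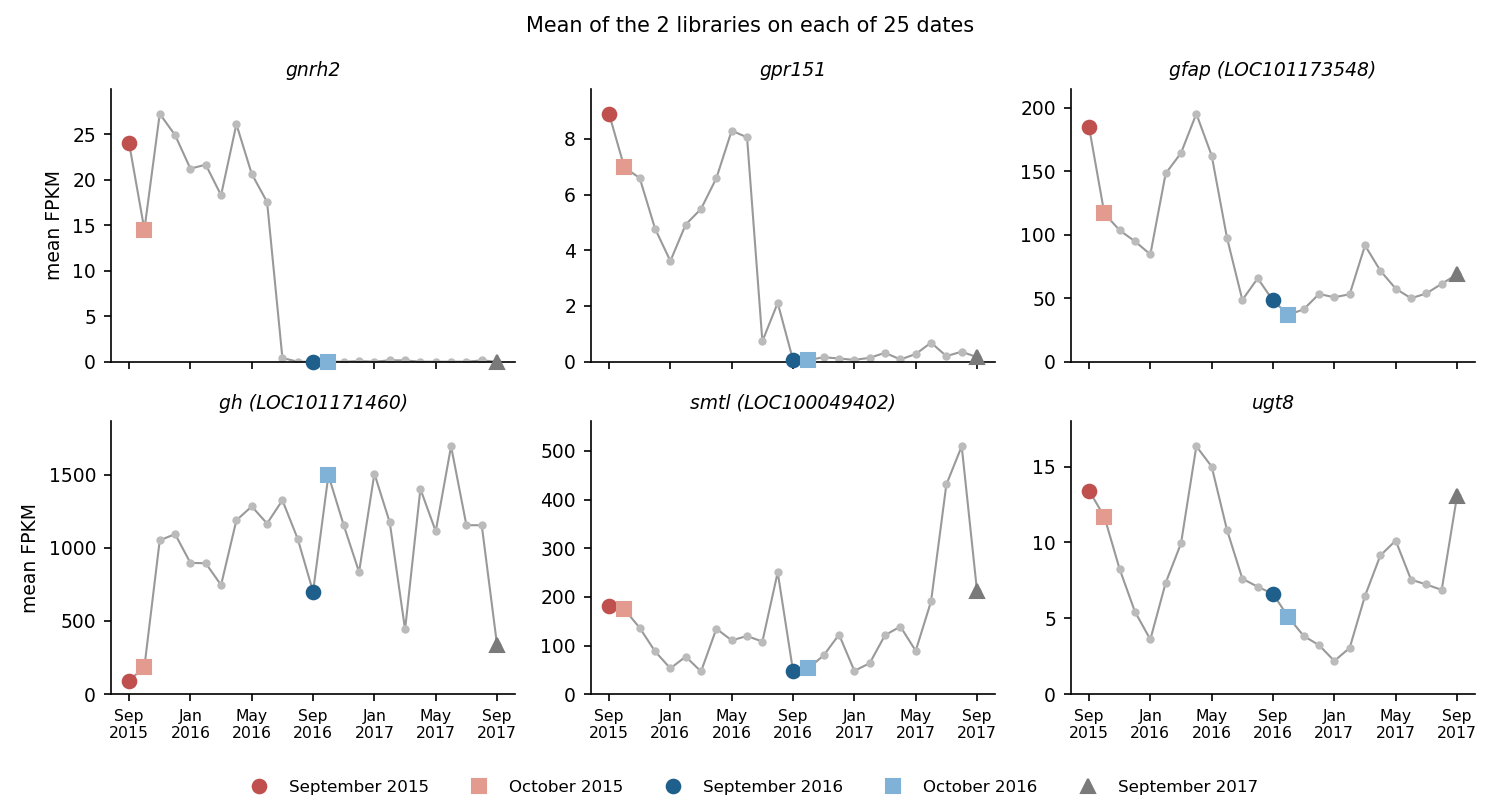
Each panel gives the mean FPKM of the 2 libraries on each of the 25 dates, on an axis from 0, with the 5 dates compared here in colour. gnrh2 and gpr151 drop between June and July 2016 and stay low, and gfap drops at the same date but reaches 91.5 FPKM again in March 2017, above its January 2016 value of 84.5 FPKM. gh is lowest on the 2 dates of 2015, and smtl and ugt8 are higher in September 2015 and September 2017 than in September 2016.

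Genes of the telencephalon were called in both directions. Of 37 tested, 2 rose, 3 fell and 32 did not pass, beside 0.697% higher and 2.21% lower among all genes. The median of the list was 0.06, and under quantile scaling 4 rose and 3 fell. With no filter on low values 0 rose and 2 fell of 40. With 32 members not called, the calls do not divide the list by region. Among those that fell, tbr1, a factor of pallial glutamate neurons, measured 8.82 to 16.6 FPKM in 2015 and 6.32 to 8.17 FPKM in 2016 (difference -0.79 ± 0.17, adjusted p = 0.0307). The neurod2 genes LOC101171533 and neurod2 fell by 0.70 (adjusted p = 0.00824) and 0.60 (adjusted p = 0.0291). Of those that rose, lhx8, a factor of ventral cholinergic neurons, measured 2.82 to 4.29 FPKM in 2015 and 5.91 to 7.61 FPKM in 2016 (difference 0.77 ± 0.17, adjusted p = 0.0291), and dlx6 rose by 0.61 (adjusted p = 0.0496). Without the second library of October 2015, tbr1 (adjusted p = 0.0658), neurod2 (0.0846) and dlx6 (0.0522) no longer passed. neurod2 was also lost without replicate 1 of October 2016 (adjusted p = 0.0573), and dlx6 without that library (0.0514), replicate 1 of September 2016 (0.056) or replicate 1 of September 2015 (0.0991). dlx5 measured 17.7 to 20.5 FPKM in 2015 and 25.7 to 27.1 FPKM in 2016, and dlx2 8.99 to 9.75 and 10.8 to 12.7 FPKM. Neither passed (adjusted p = 0.116 and 0.227), although the years did not overlap in either gene.

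In the pituitary, growth hormone changed most. The gene gh (LOC101171460) measured 64.4 and 117 FPKM in September 2015, 212 and 161 FPKM in October 2015, 666 and 734 FPKM in September 2016, and 1616 and 1376 FPKM in October 2016. Both dates of 2016 were thus several-fold above the same date of 2015, and every library of 2016 lay above every library of 2015. The means were 139 ± 62.9 FPKM (SD, n = 4) and 1098 ± 471 FPKM (SD, n = 4), a ratio of 7.92. The fitted difference was 3.00 ± 0.29, with an adjusted p of 0.000116. September and October gave nearly equal differences, 2.99 and 3.01. The 2 dates of 2015 were the lowest of all 25: from November 2015 to June 2016 gh ran from 746 to 1283 FPKM, and from November 2016 to August 2017 from 442 to 1694 FPKM. Only 24 genes (0.146%) had their 2 lowest date means in September and October 2015. September 2017, at 375 and 297 FPKM, was below September 2016 and above September 2015 for gh. With libraries as units these differences were -1.065 (adjusted p = 0.0214) and 1.929 (adjusted p = 0.000214).

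Somatolactin, smtl (LOC100049402), a hormone of the growth hormone and prolactin family that acts on pigment and metabolism in fish, went the other way. It measured 195, 168, 143 and 205 FPKM in 2015 and 45.4, 49.8, 38.7 and 67.4 FPKM in 2016. The years did not overlap, and the fitted difference was -1.82 ± 0.38 (adjusted p = 0.0244). September 2017 stood at 164 and 259 FPKM, as high as in 2015. smtl also varied widely on other dates. Its date means ran from 46.6 to 136 FPKM from November 2015 to June 2016 and stood at 251 FPKM in August 2016. From November 2016 to August 2017 they ran from 47.9 to 510 FPKM. The low values were thus not particular to September and October 2016. Prolactin, prl1 (LOC101172582), of the same family, overlapped between years at 1729 to 2934 and 1548 to 3168 FPKM (adjusted p = 0.883).

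**Figure D3:**
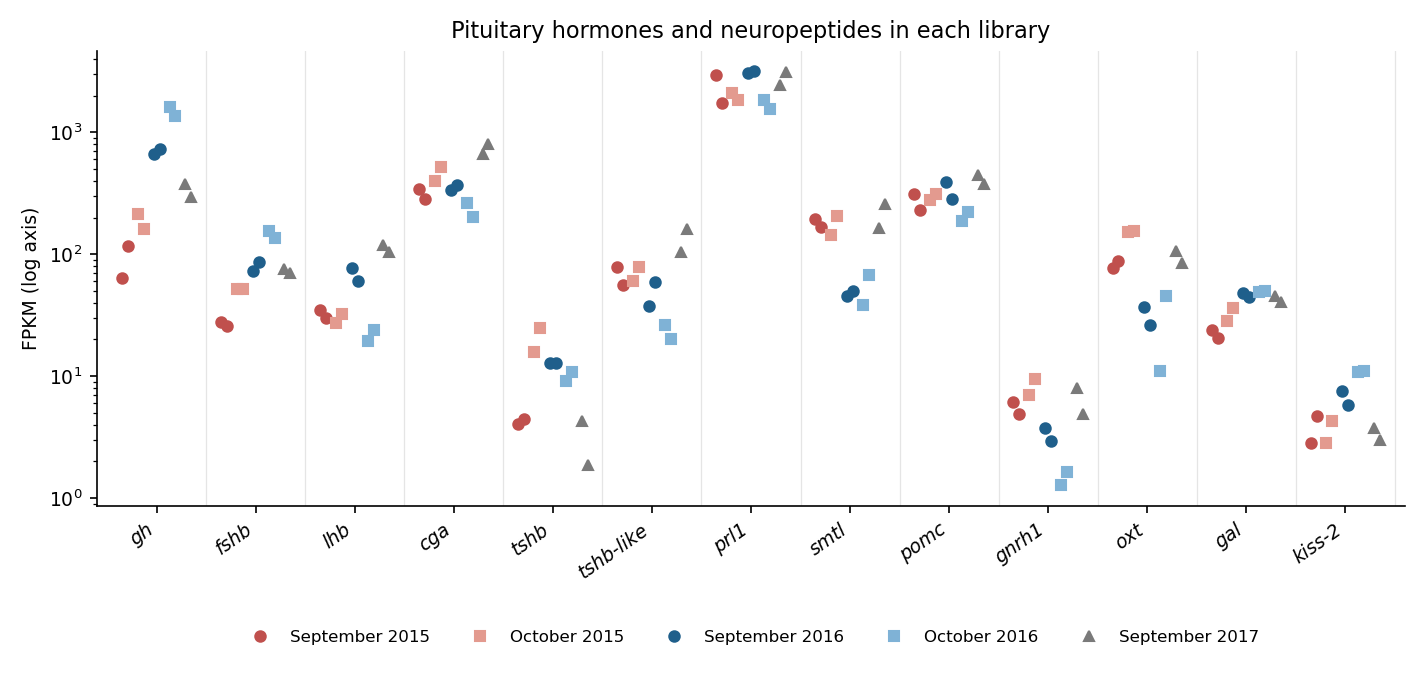
Each symbol is 1 library on a log axis of FPKM, for 9 pituitary hormone genes and 4 neuropeptide genes. Colours and shapes give the date. gh in 2016 lies above every value of 2015, smtl and oxt lie below, and prl1 and pomc overlap.

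The gonadotropins did not pass. fshb, the beta subunit of follicle-stimulating hormone, measured 27.9 and 26.0 FPKM in September 2015, 52.2 and 51.6 FPKM in October 2015, 73.4 and 86.4 FPKM in September 2016 and 155 and 136 FPKM in October 2016. The years did not overlap, but with dates as units the adjusted p was 0.0816 for a difference of 1.5 ± 0.44. lhb, the beta subunit of luteinizing hormone, measured 34.8 and 29.9 against 76.5 and 60.1 FPKM in September. In October it measured 27.5 and 32.1 against 19.4 and 23.7 FPKM. Its year difference had an adjusted p of 0.775. The sign differed between the months, but over libraries the October difference minus the September difference did not pass (-1.501, adjusted p = 0.0787). The shared alpha subunit cga measured 283 to 523 FPKM in 2015 and 203 to 372 FPKM in 2016 (adjusted p = 0.475).

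The thyrotropin beta genes did not pass either. LOC105354380 (tshb) measured 4.07 to 24.9 FPKM in 2015 and 9.10 to 12.9 FPKM in 2016 (adjusted p = 0.782), and LOC101171658 (tshb-like) 56.0 to 78.6 and 20.2 to 59.2 FPKM (adjusted p = 0.0995). pomc, the precursor of corticotropin and melanotropin, overlapped at 231 to 314 and 188 to 392 FPKM (adjusted p = 0.839). A rare pomc-related gene, LOC101168338, fell by 1.01 (adjusted p = 0.0365) from 2.45 to 3.23 FPKM down to 0.62 to 1.14 FPKM, with an adjusted p of 0.0525 without replicate 1 of September 2016, while LOC101164777 measured 1.54 to 3.16 and 2.36 to 4.21 FPKM (adjusted p = 0.564). The genes prl, gpha2 and gphb5 were under the limit for testing, at no more than 0.48 FPKM in these libraries. Among the 11 hormone genes tested there were thus 1 rise, 2 falls and 8 without a call. Their median difference was 0.31 between the Septembers and -0.53 between the Octobers.

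Genes of pituitary identity and secretion were tested beside the hormones. Of 42 tested, 2 rose and 1, pax7, fell, with a median of 0.07. Their summed level was 1406 to 1516 FPKM in the libraries of 2015 and 1401 to 1478 FPKM in 2016. nr5a1, the steroidogenic factor of gonadotropes and of the ventromedial hypothalamus, measured 3.22, 3.32, 2.04 and 2.79 FPKM in 2015 and 6.21, 5.94, 5.33 and 4.54 FPKM in 2016 (difference 0.77 ± 0.13, adjusted p = 0.0111). chgb, chromogranin B of secretory granules, rose by 0.83 (adjusted p = 0.0291), from 9.94 to 15.6 FPKM up to 18.4 to 36.9 FPKM, and was the only gene called among 18 of neurosecretion and peptide processing. Without replicate 1 of September 2015 chgb had an adjusted p of 0.0768. pou1f1, the factor of growth hormone, prolactin and thyrotropin cells, measured 11.3 to 18.5 FPKM in 2015 and 16.2 to 20.6 FPKM in 2016 (adjusted p = 0.399). lhx3, pitx1 and six6 also overlapped, with adjusted p values of 0.396, 0.425 and 0.443.

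Peptides of the hypothalamus and preoptic area moved in both directions. Of 62 tested genes in that list 5 rose, 5 fell and 52 did not pass, beside 0.697% higher and 2.21% lower among all genes. The median of the list was 0.03, and under quantile scaling 8 rose and 5 fell. oxt, the precursor of isotocin, the fish form of oxytocin, measured 77.0, 87.5, 153 and 156 FPKM in 2015 and 37.1, 26.2, 11.1 and 45.3 FPKM in 2016. The years did not overlap (difference -2.04 ± 0.44, adjusted p = 0.0291), but the value of 11.1 FPKM weighed on this call, and without that library the difference was -1.56 (adjusted p = 0.0589). A related precursor, LOC101160739, measured 138 to 245 FPKM in 2015 and 18.1 to 109 FPKM in 2016, lowest in the same library, and did not pass (adjusted p = 0.0816). kiss-1, a kisspeptin precursor, measured 1.07 and 2.03 FPKM in September 2015 and 4.92 and 5.47 FPKM in October 2015, against 0.23 to 0.86 FPKM in 2016 (difference -1.46 ± 0.31, adjusted p = 0.0288). The other genes of the list that fell were cart-ch4 and cart-ch6, given above, and npb, a neuropeptide B gene, from a mean of 56.0 to one of 27.8 FPKM (adjusted p = 0.0301).

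The peptide genes that rose did so by less than 3-fold on the log2(FPKM + 1) scale. gal, galanin, measured 23.9, 20.7, 28.5 and 36.4 FPKM in 2015 and 48.3, 44.4, 49.3 and 49.8 FPKM in 2016 (difference 0.82 ± 0.15, adjusted p = 0.0163). kiss-2, the other kisspeptin precursor, rose by 1.06 (adjusted p = 0.0227), from 2.82 to 4.68 FPKM up to 5.82 to 11.0 FPKM. agrp (LOC101171147), an appetite-stimulating peptide of the hypothalamus, measured 0.52 to 0.80 FPKM in 2015 and 2.17 to 4.42 FPKM in 2016 (difference 1.28 ± 0.22, adjusted p = 0.00994). hmx2, a hypothalamic homeobox factor, and th2, a tyrosine hydroxylase of hypothalamic dopamine cells, rose by 0.71 (adjusted p = 0.0211) and 0.51 (adjusted p = 0.0418). Without replicate 1 of September 2015, kiss-2 and th2 had adjusted p values of 0.0613 and 0.0615, and th2 was also lost without replicate 1 of October 2015 (0.0587), replicate 2 of September 2016 (0.0504) or replicate 1 of October 2016 (0.0791). With dates grouped in periods of 2 months, gal (adjusted p = 0.0836), kiss-2 (0.0562) and th2 (0.0723) did not pass.

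Outside that list, calcb, of the calcitonin peptide family, measured 7.56, 7.43, 6.46 and 8.30 FPKM in 2015 and 17.1, 19.1, 20.8 and 16.2 FPKM in 2016, without overlap between the years (difference 1.19 ± 0.22, adjusted p = 0.0147). The cholecystokinin gene LOC101167231, picked after its values were seen, measured 9.34 to 12.0 FPKM in 2015 and 15.6 to 24.5 FPKM in 2016 (adjusted p = 0.0198). gnrh1, the gonadotropin-releasing hormone of the preoptic area, measured 6.10, 4.87, 6.96 and 9.52 FPKM in 2015 and 3.72, 2.92, 1.28 and 1.64 FPKM in 2016. All libraries of 2016 lay below those of 2015, with an adjusted p of 0.0532 for a difference of -1.24 ± 0.32. gnrh3 measured 3.42 to 12.8 and 9.17 to 16.9 FPKM (adjusted p = 0.612), and cyp19b, brain aromatase of radial glia, 102 to 122 and 85.5 to 99.4 FPKM (adjusted p = 0.719). avp, the vasotocin precursor, was not analysed here.

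The oligodendrocyte list holds genes of the cells that form myelin. Of its 17 tested members, 10 fell, none rose and 7 did not pass, where 2.21% of all genes fell. The median of the list was -0.71 on the log2 scale. Under quantile scaling 8 members fell and the median was -0.58. The summed level of the list was 1587 to 2245 FPKM in the libraries of 2015 and 523 to 1183 FPKM in 2016. ugt8, the enzyme of myelin galactolipids, measured 14.9, 11.9, 11.8 and 11.6 FPKM in 2015 and 7.60, 5.62, 4.03 and 6.13 FPKM in 2016 (difference -1.01 ± 0.14, adjusted p = 0.00268). mpz, a myelin adhesion protein, measured 98.8 to 138 FPKM in 2015 and 42.0 to 97.9 FPKM in 2016 (adjusted p = 0.00565). mag, a myelin-associated glycoprotein, measured 62.8 to 73.3 and 35.0 to 44.4 FPKM (adjusted p = 0.0288). The abundant mbp gene LOC101159204, for myelin basic protein, measured 692, 570, 659 and 555 FPKM in 2015 and 345, 234, 123 and 307 FPKM in 2016 (difference -1.39 ± 0.31, adjusted p = 0.0301).

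Other members that fell included LOC101173447 (mbp), cldn19, the precursor-cell receptor gpr17, whose years overlapped, and the lineage factor sox10, by 0.57 to 1.12 on the log2 scale. Replicate 1 of October 2016 had the lowest value of 2016 in mbp, mpz and ugt8. Without it 5 members were called lower, with both mbp genes, cldn19 and gpr17 among those lost, and without replicate 1 of September 2015 the count was 6. sox10 was lost without any of 4 libraries, replicate 2 of October 2015, replicate 2 of September 2016, replicate 2 of October 2016 or replicate 1 of September 2015, with adjusted p values from 0.053 to 0.124. The median was -0.81 to -0.63 whichever of the 8 libraries was left out. With dates grouped in periods of 2 months in place of the month block, 4 members were called, and LOC101173447, cldn19, gpr17, sox10, ugt8 and mpz did not pass, with adjusted p values from 0.051 to 0.101.

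Of 20 tested genes of radial glia and astroglia 4 fell, none rose and 16 did not pass, with a median of -0.34. Under quantile scaling 3 fell and 1 rose. LOC101173548 (gfap), the intermediate filament of radial glia, measured 205, 165, 126 and 108 FPKM in 2015 and 46.7, 49.7, 37.3 and 36.5 FPKM in 2016 (difference -1.77 ± 0.19, adjusted p = 0.000215). s100b, a calcium-binding protein of glia, measured 497, 439, 455 and 448 FPKM in 2015 and 232, 212, 143 and 166 FPKM in 2016 (difference -1.31 ± 0.20, adjusted p = 0.00523). fabp7, a fatty acid carrier of radial glia, fell by 1.15 (adjusted p = 0.033), from 1107 to 1479 FPKM down to 442 to 683 FPKM, and mlc1, a membrane protein of astrocyte endfeet, by 0.83 (adjusted p = 0.0196). Without replicate 1 of September 2015, fabp7 had an adjusted p of 0.0619, and with dates grouped in periods of 2 months one of 0.05. The potassium channel kcnj10, picked after its values were seen, fell by 1.13 (adjusted p = 0.0374), and its adjusted p was 0.0645 without that same library and 0.0501 without replicate 1 of September 2016.

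**Figure D4:**
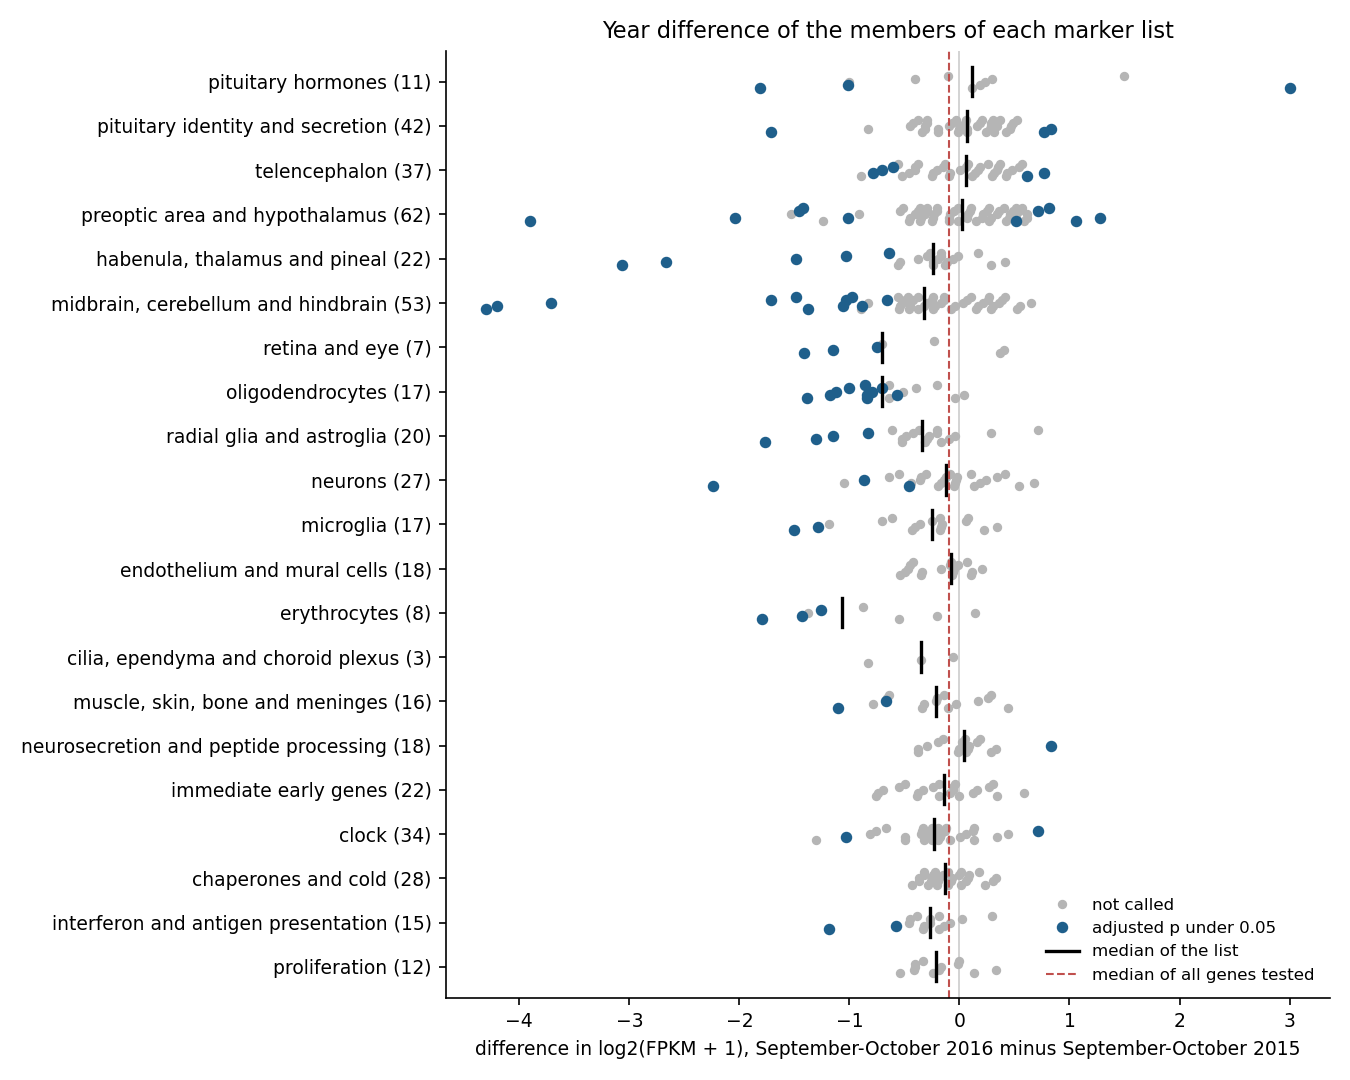
Each dot is 1 tested gene of a marker list, placed by its fitted year difference on the log2(FPKM + 1) scale, with called genes in blue, the median of the list as a black bar and the median of all genes as a dashed line. The number tested is in brackets. The lists of oligodendrocytes, erythrocytes and retina have medians of -0.71, -1.07 and -0.70, while those of pituitary, telencephalon and hypothalamus lie between 0.03 and 0.12.

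Of 8 tested erythrocyte genes 3 fell, none rose and 5 did not pass, with a median of -1.07, where 2.21% of all genes fell. With dates grouped in periods of 2 months 1 of the 8 was called, and the alpha globin gene gb (adjusted p = 0.182) and LOC101174997 (0.124) did not pass. The alpha globin gene gb measured 2411, 1978, 1098 and 1090 FPKM in 2015 and 491, 745, 522 and 568 FPKM in 2016 (difference -1.43 ± 0.32, adjusted p = 0.0322, and 0.0501 without replicate 1 of September 2016). The embryonic-type globin LOC101174997 went from 749 to 956 FPKM down to 207 to 329 FPKM (difference -1.79 ± 0.35, adjusted p = 0.0196). alas2 (LOC100049501), the heme synthesis enzyme of red cells, fell by 1.26 (adjusted p = 0.0147). The globin copies can share reads, and their part in each other's values was not separated. Summed erythrocyte genes ran from 3291 to 5501 FPKM in 2015 and from 1263 to 1903 FPKM in 2016, and how much blood the block held was not measured apart from these genes.

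Of 17 tested microglia genes 2 fell, none rose and 15 did not pass, where 2.21% of all genes fell. Under quantile scaling 1 of them fell. The summed level of the list overlapped between years at 381 to 521 and 305 to 527 FPKM. Both that fell are of the complement C1q complex: LOC101161146 (c1qc) measured 13.2 to 19.4 FPKM in 2015 and 3.42 to 6.17 FPKM in 2016 (adjusted p = 0.033), and LOC101157838 (c1qa) 3.24 to 7.68 and 1.18 to 1.98 FPKM (adjusted p = 0.0496). Without replicate 1 of September 2016 the adjusted p of both LOC101161146 and LOC101157838 was 0.0647. LOC101157838 was also lost without replicate 2 of October 2015, replicate 1 of October 2016 or replicate 1 of September 2015, with adjusted p values from 0.0555 to 0.0918. The third subunit gene, LOC101168703 (c1qb), measured 9.52 to 13.2 and 3.97 to 5.05 FPKM without passing (adjusted p = 0.065). Of 15 interferon and antigen presentation genes 2 fell and 13 did not pass, beside the same 2.21% of all genes, and under quantile scaling 1 fell. Those that fell were rsad2, an antiviral enzyme (3.94 to 5.87 against 1.34 to 2.05 FPKM, adjusted p = 0.0198, and 0.0792 with dates grouped in periods of 2 months), and tapbp, a peptide-loading factor (adjusted p = 0.041). tapbp was lost without replicate 1 of September 2015 (adjusted p = 0.186), replicate 1 of September 2016 (0.0593) or replicate 2 of October 2016 (0.0645). In the list of muscle, skin, bone and meninges 2 of 16 fell, again beside 2.21% of all genes. They were LOC101162163 (col1a1) and LOC101156813 (acan), by 1.11 and 0.67. The first had an adjusted p of 0.0647 without replicate 1 of September 2016 and 0.0842 with periods of 2 months. The retina list held 7 tested genes, of which pou4f2, rpe65 and pmel fell, the last with overlap between years and with an adjusted p of 0.0929 without replicate 1 of September 2016 and 0.0681 without replicate 1 of October 2016, and of 0.0756 with periods of 2 months.

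No member was called among 18 genes of endothelium and mural cells, 22 immediate early genes, 28 chaperones and cold-responsive genes, 12 proliferation genes and 3 of cilia and ependyma, with medians of -0.08, -0.14, -0.13, -0.21 and -0.35. General neuronal genes counted 3 lower and 0 higher of 27 (median -0.12): slc17a7, given above, the vesicular GABA transporter gene LOC101164150 and the neurofilament gene LOC101160521, by 0.87 and 0.46. Under quantile scaling the list had 2 lower and 1 higher. LOC101160521, whose years overlapped, was lost without replicate 2 of October 2015, replicate 1 of October 2016 or replicate 1 of September 2015, with adjusted p values from 0.0551 to 0.0689, and with dates grouped in periods of 2 months (0.169). In the clock list, 1 of 34 rose and 1 fell, beside 0.697% higher and 2.21% lower among all genes tested, so these counts do not set the list apart. hlf, a PAR bZIP factor under clock control, measured 12.9 to 15.7 FPKM in 2015 and 21.5 to 27.6 FPKM in 2016 (difference 0.71 ± 0.14, adjusted p = 0.0196), and dec1a, a clock repressor, fell by 1.03 (adjusted p = 0.0317, 0.0583 without replicate 1 of October 2016, and 0.0961 with dates grouped in periods of 2 months).

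Beyond the lists, the rising genes with a symbol include signalling genes of forebrain neurons. camkv, a kinase-like protein of synaptic vesicles, measured 28.7, 26.4, 25.5 and 26.8 FPKM in 2015 and 44.9, 43.8, 45.4 and 43.8 FPKM in 2016. The libraries of a year differed little beside the gap between years (difference 0.71 ± 0.10, adjusted p = 0.0026). prkcb, protein kinase C beta, measured 74.9 to 91.8 and 136 to 146 FPKM (difference 0.71 ± 0.12, adjusted p = 0.0107). The transcription factor genes hivep2 and zfhx4 rose by 0.79 (adjusted p = 0.0272) and 0.71 (adjusted p = 0.0351, and 0.05 without replicate 2 of October 2015), and cntln, a centrosomal protein gene, by 0.67 (adjusted p = 0.0207). The muscarinic receptor gene LOC101174568 (chrm4), picked after its values were seen, measured 25.4 to 29.7 FPKM in 2015 and 48.5 to 58.8 FPKM in 2016 (adjusted p = 0.0115).

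Among other falls, prkcq, protein kinase C theta, measured 8.11, 8.17, 10.4 and 10.4 FPKM in 2015 and 1.51, 1.71, 1.02 and 1.23 FPKM in 2016 (difference -2.12 ± 0.22, adjusted p = 0.000184). hapln4, a link protein of perineuronal matrix, measured 7.63 to 12.1 and 2.78 to 3.66 FPKM (adjusted p = 0.000148), and bhlhe23, a bHLH factor, 7.78 to 19.4 and 3.10 to 5.88 FPKM (adjusted p = 0.00689). The following were picked after their values were seen. draxin, an axon guidance protein, measured 12.4 to 16.5 and 4.67 to 5.91 FPKM (adjusted p = 0.00071). sparc, a matrix protein of glia and vessels, measured 78.7 to 86.4 and 36.0 to 38.9 FPKM (adjusted p = 0.00523). dio3, the deiodinase that inactivates thyroid hormone, measured 6.49, 5.69, 6.07 and 5.78 FPKM in 2015 and 2.58, 2.68, 2.72 and 2.32 FPKM in 2016 (difference -0.97 ± 0.19, adjusted p = 0.0208). dio2, the activating deiodinase, overlapped at 4.67 to 6.75 and 4.48 to 6.00 FPKM (adjusted p = 0.929).

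The widest change of all named genes was in LOC101170951, annotated as a cytosolic non-specific dipeptidase. It measured 518, 522, 624 and 710 FPKM in 2015 and 3.44, 1.86, 0.26 and 0.31 FPKM in 2016. The difference was -8.11 ± 1.27 (adjusted p = 0.00635). Its libraries of September 2017 stood apart from each other, at 208 and 14.2 FPKM. On dates between, it ran from 393 to 893 FPKM from November 2015 to June 2016, stood at 251 FPKM in July and August 2016, and ran from 0.11 to 224 FPKM from November 2016 to August 2017.

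The months could be set side by side because they share no library. With libraries as units, 4072 genes differed between the Septembers (24.7%) and 3914 between the Octobers (23.7%), again over the spread between libraries of a date. Without replicate 1 of September 2015 or of September 2016 the September count was 1827 or 1847, and without any 1 of the 4 October libraries the October count was 1903 to 2604, the lone library being assumed to vary like the others. Of the genes called in September 85.2% had the same sign in October, beside 68.9% of all genes tested, and 1682 were called the same way in both months, 41.3% of the September and 43% of the October calls. Another 73 were called in opposite directions.

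The year difference itself differed between the months in 534 genes (3.24%), by the interaction over libraries. That count was 236 to 375 when 1 of the 8 libraries was left out. The genes with a symbol and the smallest p were kdm7a, dot1l and jarid2, which code for chromatin enzymes and a cofactor, bhlhe41, a clock repressor, and srsf5, a splicing factor. kdm7a measured 88.7 and 104 FPKM in September 2015 and 33.2 and 35.4 FPKM in September 2016, but 162 and 148 against 168 and 168 FPKM in October. Its interaction was 1.57 ± 0.12 (adjusted p = 1.29e-09). dot1l and bhlhe41 were likewise lower in September 2016 and level in October, with interactions of 1.2 (adjusted p = 8.16e-07) and 1.41 (adjusted p = 1.32e-07).

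jarid2 measured 33.1 and 43.0 against 18.5 and 15.3 FPKM in September and 55.8 and 48.4 against 79.7 and 74.6 FPKM in October, so it turned its sign (interaction 1.68, adjusted p = 7.29e-06). srsf5 did so in the other direction, at 161 and 166 against 246 and 279 FPKM in September and 154 and 181 against 103 and 110 FPKM in October (interaction -1.32, adjusted p = 2.74e-06). In the pituitary, pou1f1 rose between the Septembers, from 11.5 and 11.3 to 20.6 and 19.4 FPKM (adjusted p = 1.6e-05), while October held 18.5 and 18.0 against 16.2 and 16.5 FPKM (adjusted p = 0.354, interaction -0.91, adjusted p = 0.00136).

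**Figure D5:**
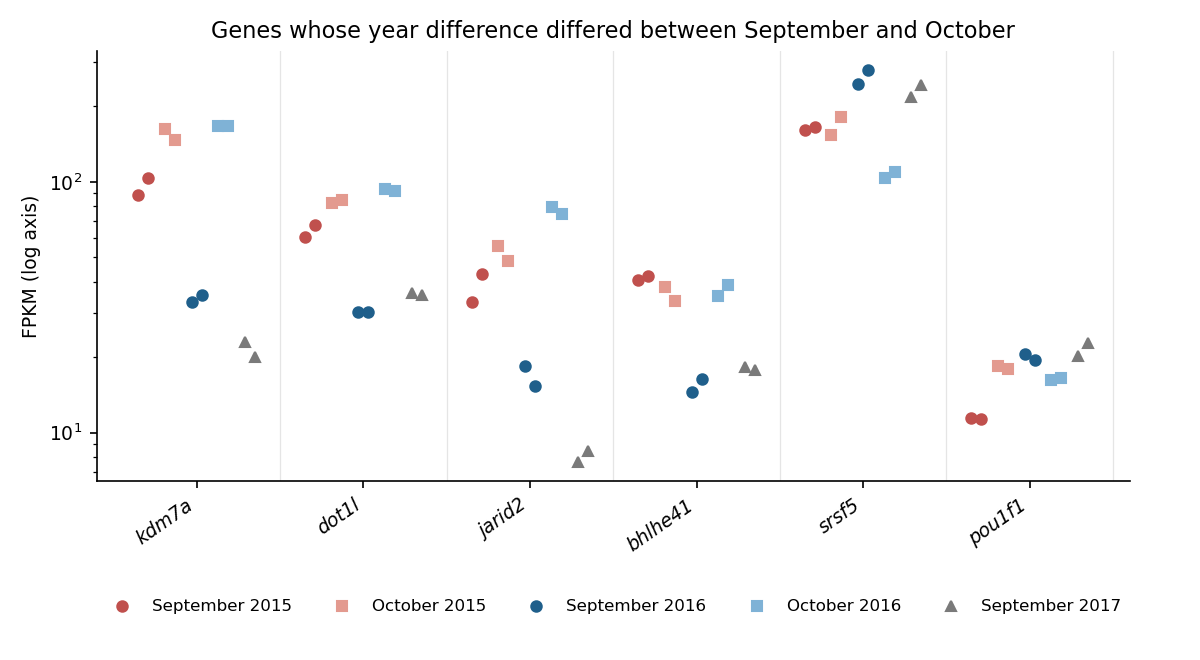
Each symbol is 1 library on a log axis of FPKM, for the 5 genes with the smallest interaction p and pou1f1. In kdm7a, dot1l and bhlhe41 the September libraries of 2016 lie below those of 2015 while the October libraries lie close together.

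September 2017 served as a further reference for direction, and being a single date it cannot show whether a change persisted. It was set against the middle of September 2015 and September 2016, a contrast that is independent of the difference between those Septembers, and 2432 genes departed from that middle (14.7%). Of the 365 lower genes, September 2017 lay nearer to September 2016 in 173 (47.4%), and of the 115 higher genes in 47 (40.9%), beside 41.5% of all genes tested. These counts share the September libraries with the comparison itself.

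The lists differed in where September 2017 lay. In the midbrain list 10 of the 11 fallen genes lay nearer 2016 in September 2017, and in the habenula list 4 of 5. So did 3 of the 4 fallen genes of the astroglial list and all 3 of the neuronal list. gnrh2 was below the middle by 2.32 (adjusted p = 3.78e-12), gpr151 by 1.49 (adjusted p = 1.1e-06) and LOC101173548 (gfap) by 0.45 (adjusted p = 0.00165). In the oligodendrocyte list 8 of 10 lay nearer 2015, as did all 3 called erythrocyte genes and both called genes of microglia and of interferon response. ugt8 was above the middle by 0.43 (adjusted p = 0.0352), LOC101161146 (c1qc) by 0.87 (adjusted p = 0.00311), sparc by 0.59 (adjusted p = 0.000102) and dio3 by 0.57 (adjusted p = 0.00599).

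Among the hormones, smtl was above the middle by 1.14 (adjusted p = 0.00493), and gh did not depart from it (0.43, adjusted p = 0.331). gal lay above the middle, on the side of 2016 (0.41, adjusted p = 0.0475), and so did the cholecystokinin gene LOC101167231 (0.68, adjusted p = 0.00223), while hlf lay below it, on the side of 2015 (-0.36, adjusted p = 0.0145), and hivep2 as well (-0.58, adjusted p = 1.59e-05). camkv and calcb lay near the middle, at -0.09 and 0.01 (adjusted p = 0.434 and 0.962).

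Members of the marker lists of oligodendrocytes, astroglia, erythrocytes and the midbrain fell in the same 8 libraries in which hormone and peptide genes changed. The median of the midbrain list was below that of all genes between the Septembers only, and 42 of its 53 tested members did not pass. The part of these marker genes in the hormone and peptide results was not tested. The summed level of the astroglial list was 3559 to 4224 FPKM in 2015 and 2061 to 2509 FPKM in 2016, and that of the midbrain list 1121 to 1365 and 1010 to 1030 FPKM. For telencephalon the sums overlapped, at 537 to 587 and 553 to 577 FPKM. Such sums follow their most abundant members, fabp7 among them in the astroglial list, where 16 of 20 tested genes did not pass.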

How the data were processed

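The authors deposited FPKM values, 1 column per library; per the submitters' processing notes Bowtie2 2.2.5 and RSEM 1.2.12 were used, with no role given. The genome build was not given in the sources used here, and no coordinate is printed. Per the labels' protocols, libraries were poly-T selected, strand-specific and paired-end. From FPKM, log2(FPKM + 1) was computed and genes averaging under 1 FPKM across the 50 libraries were left out. limma 3.58.1 (R 4.3.3, variance trend, Benjamini-Hochberg over 16493 genes) was fitted to 25 date means with the calendar month as a block and separate year differences for September to October, November to June, July to August and September 2017, leaving 9 residual degrees of freedom. Contrasts of single dates were fitted to 50 libraries with the date as a factor (25 residual degrees of freedom), so their p-values measure only the spread between libraries of a date. Both models were run on simulated data. For the library fit these held no spread between dates, so they cannot show how shared dates affect its calls. The members, lists and tests were chosen with earlier results of these data known. Of 650 list entries in 21 lists, 569 genes were matched, 201 of them by description; RefSeq assembly ASM223467v1 served for names only. Named were the pituitary hormones and a set of region and peptide genes whatever their result, the 12 largest differences in each direction among called genes with a symbol, no overlap of libraries and at least 5 FPKM in the higher year, up to 4 members per list, given by count alone in lists without a call, and 5 interaction genes; further list members and genes outside the lists were picked after their values were seen. Results for some genes that the naming rule covers are not reported here. Depth per library was not used here, so no counting intervals are given. Alternatives changed the pseudocount, filter, scaling, unit and block, and left out each of the 8 libraries. Figures used matplotlib 3.10.9 in Python 3.11.15.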

Additional observations from a re-analysis of the deposited data

Results flagged for a closer look

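In 10 genes named above, the year difference of October departed from that of September by the interaction over libraries. The October difference was the higher by 1.68 in jarid2, 1.571 in kdm7a, 1.41 in bhlhe41, 1.204 in dot1l and 1.103 in dec1a on the log2(FPKM + 1) scale. It was the lower by a signed value of -2.332 in LOC105354380 (tshb), -1.747 in kiss-1, -1.323 in srsf5, -1.153 in cga and -0.9118 in pou1f1. The largest adjusted p among them was 0.0489, in cga. In cga the libraries of September 2015 measured 345 and 283 FPKM against 334 and 372 FPKM in September 2016, and those of October 398 and 523 against 264 and 203 FPKM.

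A single library stood apart from the other 3 of its year in 7 of the 218 groups of 4 libraries looked at. Chance alone would flag about 5%, or 10.9 groups, if the 4 values were independent. They come in pairs from 2 dates, so 7 cannot be judged against 10.9. High libraries were 4.21 FPKM in LOC101164777 (2016), 0.21 FPKM in LOC100533498 (2016), 0.13 FPKM in LOC101175655 (2016), 122.1 FPKM in cyp19b (2015), 14.91 FPKM in ugt8 (2015) and 19.42 FPKM in LOC101161146 (2015). A low library was 0.40 FPKM in rln3 (2016).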

How the results depend on the processing

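Of the 82 named genes called, none changed direction under any of 20 alternatives, 44 held their call under all but the single months, and 13 under all. The 480 calls became 334 to 799 when 1 of the 8 libraries was left out (67 to 201 higher, 260 to 602 lower), 45 with the September dates alone (3 higher, 42 lower) and 22 with the October dates alone (1 higher, 21 lower). With only the 4 dates compared, 443 genes were called (97 higher, 346 lower), and 258 of the 480 were among them. With no filter on low values 351 were called, with 293 of the 480 among them. Of the 82 named genes, 17 and 21 lost their call in these settings. The lost calls given gene by gene above cover left-out libraries and 2-month groups only. Genes called higher numbered 74 with no filter on low values, 203 with 2-month groups of dates, 229 under quantile and 215 under median ratio scaling. Among the marker lists 251 genes were called with libraries as samples, 16 in September alone and 11 in October alone. With 1 library left out, 1827 to 4053 genes were called for September, 1903 to 3896 for October and 236 to 375 for the interaction.

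Libraries as samples called 6326 genes (1972 higher, 4354 lower). With the replicate number as a block the counts were 6394, 2005 and 4389, and 253 in the lists. The replicate numbers share no stated source, and deviations of same-numbered libraries correlated at -0.0314 to 0.0968, so they were not taken as pairs.

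Signs turned only in genes without a call, and the cause was not tested. With October alone the differences were -0.451 in lhb, -0.93 in LOC105354380, -0.236 in LOC101172582, -0.15 in pou1f1, -0.0195 in lhx3, -0.645 in srsf5, 0.0395 in bhlhe41, 0.113 in kdm7a, 0.153 in dot1l and 0.56 in jarid2. With September alone they were 0.175 in cga, 0.308 in pomc and 0.0247 in dio2. Quantile scaling gave 0.11 in pomc and 0.0171 in dio2, and median ratio scaling 0.00728 in dio2. Leaving out 1 library gave -0.0754 to 0.306 in LOC101172582, -0.225 to 0.00816 in pomc, -0.0421 to 0.0749 in srsf5 and -0.182 to 0.0437 in dio2.

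Each year holds 2 dates, and FPKM carries no depth, so counting error cannot be separated from the spread between libraries. Genes at low FPKM are the least precise.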
